A study of Caenorhabditis elegans with 16 samples.

Results

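The lysozymes and the saposin-like proteins of *Caenorhabditis elegans* were taken as every protein-coding gene of the deposited gene table whose name is lys, ilys or spp followed by a number. This rule gave 39 of the 21982 genes in the table: 10 *lys* genes, 6 *ilys* genes and 23 *spp* genes. The rule used names alone and no measured value. Of these, 31 had enough reads to be tested (9 *lys*, 4 *ilys* and 18 *spp*), and the other 8 are accounted for at the end.

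RNA of whole animals was sequenced in 16 libraries, 4 in each of 4 groups, to compare feeding with fasting in wild type and in animals that the submitters describe as deficient in H3K27ac, an acetyl mark on histone H3. Fed wild-type animals were of strain N2 (Bristol), received the empty RNA interference vector (EV RNAi) from the L1 larval stage, and had food freely available for the last 24 h before collection at adult day 2. Fasted wild-type animals were the same strain on the same vector, kept without food for those 24 h. The other genotype, called labelled-deficient here, carried a mutation in *jmjd-3.1*, a demethylase of histone H3, and received *cbp-1* RNAi, directed at a histone acetyltransferase, from L1. Its titles name the allele jmjd-3.1(gk384) and its genotype field names jmjd-3.1(gk387), so the allele is not certain. These animals were likewise fed or fasted for 24 h to adult day 2. All groups were grown at 20 °C, and mutation and RNAi always occur together, so their parts cannot be told apart.

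Lysozymes cut the peptidoglycan of bacterial cell walls. *C. elegans* has a protist-type family (*lys*), which resembles lysozymes of amoebae, and an invertebrate-type family (*ilys*). The *spp* genes encode saposin-like proteins, of which the small caenopores resemble the pore-forming amoebapores of *Entamoeba*. Many members of these families are made in the intestine, where they serve both defence against bacteria and digestion of bacterial food, and several are known targets of the transcription factors ELT-2 and DAF-16 and of the p38 kinase PMK-1.

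Read totals ran from 16446081 to 27792762 per library. The targeted genes were not lower in labelled-deficient libraries: with food, *cbp-1* reached 103 ± 16.9 CPM in wild type against 209.6 ± 36.5 CPM in the other genotype (SD, n = 4), and *jmjd-3.1* at 12.3 ± 0.398 and 17.4 ± 2.71 CPM. CPM are reads scaled to the library total, adjusted between libraries by TMM. Transcript level therefore does not check these labels. Intestinal identity was checked through 7 intestine markers, all detected in every group. Their summed level in wild type was 849 to 1048 CPM with food and 285 to 316 CPM after fasting. In labelled-deficient libraries it was 415 to 461 CPM with food and 326 to 347 CPM after fasting.

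In wild type the 3 families together held 20258 ± 3357 TPM (a level scaled for transcript length; SD, n = 4) with food and 12517 ± 831 TPM after fasting. In labelled-deficient animals they held 7788 ± 740.1 TPM with food and 3308 ± 253 TPM after fasting. The 4 groups did not overlap on this sum, and the lowest group was 6.12-fold below fed wild type. As a share of reads the families fell from 0.817% in fed wild type to 0.116% in fasted labelled-deficient libraries. In whole animals, fewer cells of a type and less RNA per cell cannot be told apart. The summed intestine markers were lower without overlap where this sum was lower on fasting in both genotypes and between the fed genotypes. Between the fasted genotypes they were higher where this sum was lower, a direction that rested on the marker *act-5*. In fed wild type *act-5* was the largest part of the marker sum, at 440.9 ± 73.2 CPM (SD, n = 4). Summed markers of the hypodermis (4 genes) were at 1372 to 2589 and 177 to 212 CPM in wild type with food and after fasting, and at 458 to 691 and 29.4 to 32.6 CPM in labelled-deficient libraries. Nearly all of that sum was the collagen gene *col-19*, at 1807 ± 560.2 CPM in fed wild type (SD, n = 4), while *dpy-7* of the same list rose on fasting in wild type (log2 change 1.40, SE 0.26, adjusted p = 7.66e-05). The part of either list in the result was not tested.

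The families differed in how the groups ranked. Summed *lys* levels were 2922 ± 446 and 736 ± 41.7 TPM in wild type with food and after fasting, and 755 ± 78.4 and 262 ± 29.5 TPM in labelled-deficient animals. Fasted wild type and fed labelled-deficient libraries overlapped. Summed *ilys* levels were 1497 ± 263, 162 ± 12.6, 499 ± 46.0 and 169 ± 23.1 TPM in the same order, so that both fasted groups were about equally low. Summed *spp* levels were 15840 ± 3098, 11619 ± 827, 6533 ± 805 and 2876 ± 264 TPM. For the *spp* family fasting in wild type left the sum 1.36-fold below that of fed wild type, against 3.97-fold for *lys* and 9.25-fold for *ilys*. These sums are descriptions and were not tested. TPM were not adjusted between libraries by TMM, so their folds can differ from the tested ones. On fasting in wild type *spp-5* went from 8134 ± 1802 to 5824 ± 739 TPM, and was 1.76-fold lower in the edgeR test.

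**Figure D1:**
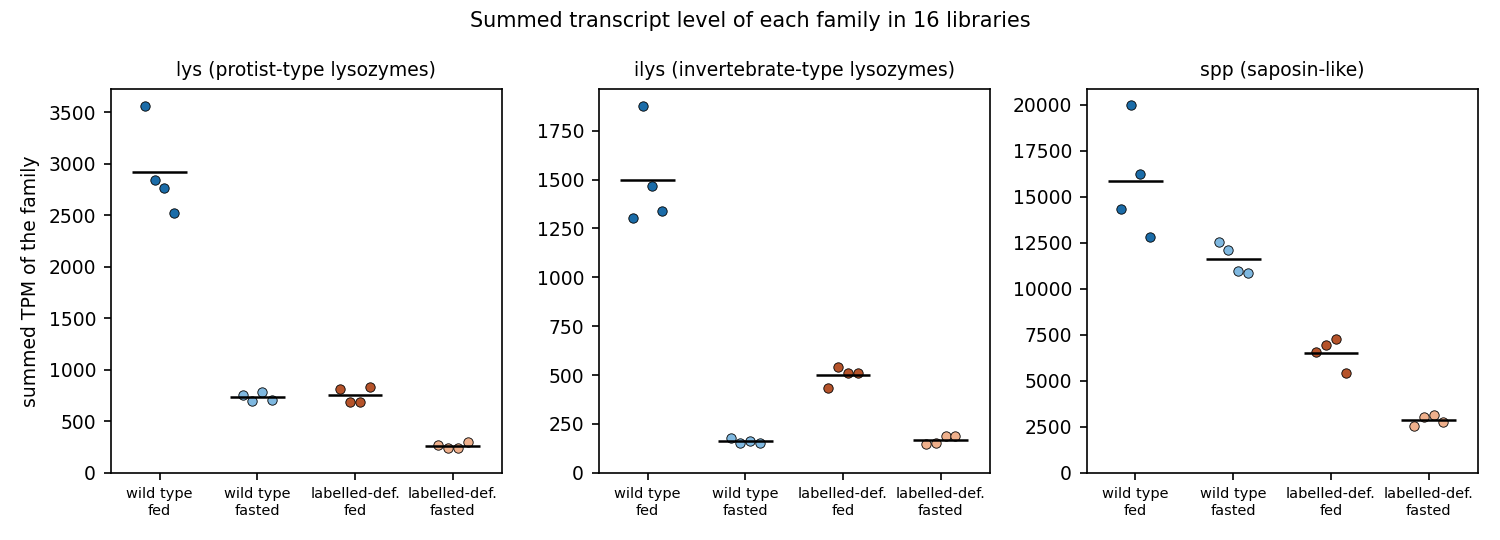
Summed TPM (y axis, starting at 0) of the *lys*, *ilys* and *spp* families in each of 16 libraries (points) by group (x axis), with the group mean as a line. Fed wild type is highest in all 3 panels, and the panels differ in where fasted wild type stands.

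Most of the sum came from few genes. *spp-5*, a pore-forming caenopore of the intestine, gave 40.2% of the summed TPM in fed wild type and 38.3% in fasted labelled-deficient animals. Among all genes by mean TPM it ranked 6 with food and 14 after fasting in wild type, and 32 and 113 in labelled-deficient animals. *spp-14* and *spp-3* came next in fed wild type, with 2518 ± 830 and 2309 ± 220 TPM, followed by *ilys-5* with 1470 ± 262 and *lys-1* with 899 ± 168 (SD, n = 4). These 5 genes together gave 75.7% of the sum there. Among *lys* genes, *lys-1*, *lys-2*, *lys-7* and *lys-8* were between 476 ± 46.3 and 899 ± 168 TPM in fed wild type, and the next, *lys-4*, was at 71.9 ± 7.66. Within the *ilys* family, *ilys-5* gave 98.2% ± 0.402 of the TPM in fed wild type.

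Fasting in wild type moved nearly every tested member, and in both directions. Of the 31, 16 fell and 12 rose at an adjusted p under 0.05 (edgeR quasi-likelihood test, Benjamini-Hochberg adjustment over all 15840 genes tested). That is 90.3% of the members. Across all genes 61% changed in this comparison, 30.6% lower and 30.4% higher, so a change on fasting was itself common. With libraries scaled by library size alone, 7458 of all genes were higher and 2523 lower, against 4808 and 4849, and 12 members were higher and 14 lower. The median log2 change was -0.69 over the members and 0.01 over all genes. Among *lys* genes 6 fell and 3 rose, among *ilys* genes 1 fell and 2 rose, and among *spp* genes 9 fell and 7 rose. Of the 7 intestine markers 5 fell and 2 rose, and their part in these counts was not tested.

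The abundant *lys* genes fell. *lys-1*, which is induced by *Serratia marcescens* and encodes an intestinal lysozyme, was at 1389.7, 1189, 1020.0 and 876 CPM in the 4 fed wild-type libraries and at 171, 146, 160.1 and 139 CPM in the 4 fasted ones. Its neighbour *lys-2* was at 1202, 979, 859.9 and 666 CPM in fed and at 33.2, 33.03, 35.2 and 31.3 CPM in fasted wild type. Neither gene had overlapping groups, and the log2 changes were -2.86 (SE 0.14, adjusted p = 7.92e-14) and -4.80 (SE 0.16, adjusted p = 1.04e-16). *lys-7*, a lysozyme gene under DAF-16 control, was at 635, 702, 618 and 608 CPM in fed and 129, 119.5, 133 and 131 CPM in fasted wild type, a log2 change of -2.32 (SE 0.23, adjusted p = 1.27e-08). *lys-8*, another DAF-16 target, was at 561, 609, 500.2 and 449 CPM in fed and 169.8, 158, 171 and 149.7 CPM in fasted wild type, a log2 change of -1.71 (SE 0.11, adjusted p = 6.35e-12). Every fed library of both genes lay above every fasted one.

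The less abundant *lys* genes split. *lys-4* rose in wild type, from 51.3, 57.7, 60.9 and 44.6 CPM when fed to 118.96, 99.3, 104 and 107 CPM when fasted, without overlap (log2 change 1.00, SE 0.11, adjusted p = 1.18e-07). *lys-5* rose from 0.274 ± 0.108 to 0.967 ± 0.345 CPM and *lys-10* from 2.98 ± 0.732 to 8.36 ± 2.29 CPM (SD, n = 4), with adjusted p of 0.00118 and 3.04e-06. *lys-6* fell from 4.67 ± 0.469 to 1.43 ± 0.263 CPM (adjusted p = 1.26e-07). *lys-3* was at 14.5, 9.05, 10.2 and 4.45 CPM in fed and 6.504, 4.81, 4.33 and 4.72 CPM in fasted wild type. Its groups overlapped, because fed replicate 4 was as low as the fasted libraries, and its log2 change of -0.92 (SE 0.24, adjusted p = 0.00195) became -0.59 (adjusted p = 0.0521) when libraries were scaled by library size alone.

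Members of the *ilys* family moved in opposite directions. *ilys-5* fell from 594, 1039.7, 709 and 667 CPM in fed wild type to 30.1, 22.2, 26.1 and 26.7 CPM in fasted wild type (log2 change -4.84, SE 0.18, adjusted p = 6.73e-16). *ilys-2* rose from 0.520, 2.93, 3.36 and 2.05 CPM to 12.3, 11.3, 12.8 and 9.10 CPM (log2 change 2.40, SE 0.30, adjusted p = 4.75e-07). The fed and fasted libraries of both genes were apart, in opposite directions. *ilys-3*, an active lysozyme that helps to digest bacteria in the pharynx and intestine, had 1 to 5 reads per library in fed wild type and 210 to 260 reads in fasted wild type. Its level went from 0.173 ± 0.124 to 11.3 ± 1.77 CPM (SD, n = 4), and its log2 change of 6.08 (SE 0.33, adjusted p = 5.86e-13) is imprecise in size because of the few reads when fed. *ilys-4* was at 21.5, 19.4, 20.4 and 11.8 CPM in fed and 17.5, 15.2, 16.4 and 13.8 CPM in fasted wild type, overlapping groups that did not pass the test (log2 change -0.22, SE 0.17, adjusted p = 0.275). By TPM, *ilys-5* was down to 40.8% ± 3.70 of its family in fasted wild type, with *ilys-2* at 24.5% ± 3.72 and *ilys-3* at 21.4% ± 2.03 (SD, n = 4).

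The 3 most abundant *spp* genes fell, and *spp-23* and *spp-4* fell to a small part of their fed level. *spp-5* was at 2079.5, 3860.2, 2842 and 1877 CPM in fed and 1755, 1623, 1377 and 1295 CPM in fasted wild type, close to each other at the edges but without overlap (log2 change -0.82, SE 0.19, adjusted p = 0.000998). *spp-3* was at 455, 735, 655 and 528 CPM in fed and 328, 264, 274 and 339 CPM in fasted wild type (log2 change -0.98, SE 0.14, adjusted p = 2.55e-06). *spp-14* was at 496, 1281, 653 and 565 CPM in fed and 315, 239, 240.4 and 294 CPM in fasted wild type (log2 change -1.46, SE 0.22, adjusted p = 6.55e-06). Fed replicate 2 was the highest library for each of these 3 genes. *spp-23* fell from 23.1, 35.1, 29.5 and 24.2 CPM to 0.629, 0.454, 0.714 and 0.330 CPM (log2 change -5.70, SE 0.22, adjusted p = 1.11e-15). *spp-4*, a neighbour of *spp-5* on the X chromosome, fell from 59.4, 94.3, 81.1 and 66.0 CPM to 3.46, 3.81, 4.15 and 3.40 CPM (log2 change -4.34, SE 0.17, adjusted p = 1.9e-15). Both were detected in every fasted library, at levels far below those in fed animals. *spp-10*, a prosaposin-like gene, fell by 1.09 on the log2 scale, and *spp-16*, *spp-17* and *spp-18* fell by 0.69, 0.66 and 1.13.

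Of the 7 *spp* genes that rose with fasting in wild type, *spp-1*, a caenopore active against bacteria and a known DAF-16 target, had the largest rise among those with a mean of at least 5 CPM. It was at 47.3, 89.1, 54.2 and 44.6 CPM in fed and 187, 164, 148 and 179.8 CPM in fasted wild type, apart in every library (log2 change 1.53, SE 0.17, adjusted p = 1.1e-07). *spp-2* rose from 102 ± 27.1 to 226 ± 45.3 CPM and *spp-8* from 155 ± 19.5 to 245 ± 12.2 CPM (SD, n = 4). *spp-12*, a caenopore gene expressed in pharyngeal neurons, rose from 0.236 ± 0.0533 to 0.841 ± 0.0862 CPM, from 3 to 5 reads per library to 16 to 19. Labelled-deficient libraries held at most 9 of its reads. It may thus have passed the read filter only through fasted wild type, where it is high. Its rise is then not independent of that filter, and its size is imprecise. *spp-6*, *spp-13* and *spp-22* were also called higher, by 0.82, 1.08 and 0.48 on the log2 scale, but not under every choice of libraries. *spp-6* lost its call without fed replicate 1 or 4 or fasted replicate 1 or 2 (log2 change 0.60 to 0.75, adjusted p 0.0614 to 0.0857). *spp-13* lost it without fed replicate 4 (adjusted p = 0.0863) or fasted replicate 3 (adjusted p = 0.0606), and *spp-22* without fed replicate 4 or fasted replicate 1, 2 or 3 (adjusted p 0.0773 to 0.158). *spp-15* and *spp-19* did not pass the test. *spp-17* did not pass it with libraries scaled by library size alone (log2 change -0.30, adjusted p = 0.0907).

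**Figure D2:**
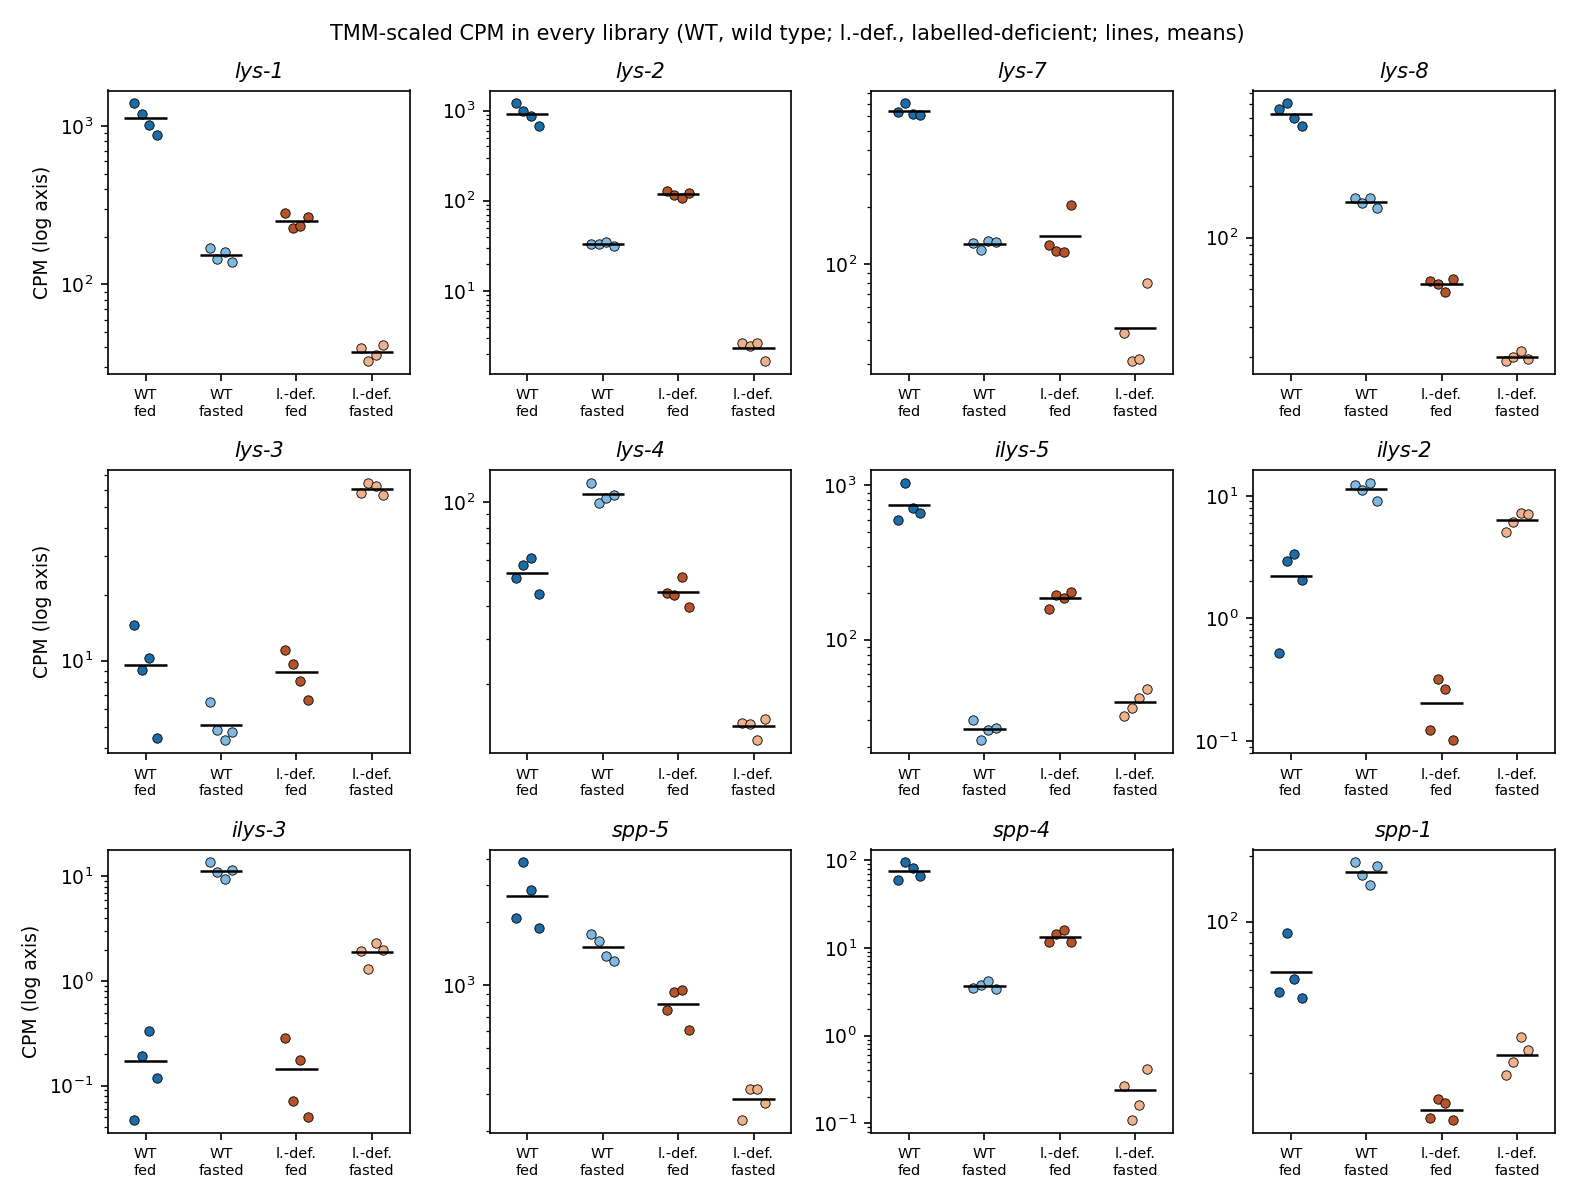
TMM-scaled CPM (y axis, log scale) of 12 members in each of 16 libraries (points) by group (x axis), with the group mean as a line. *lys-1*, *lys-2*, *lys-7* and *lys-8* are highest in every fed wild-type library, *ilys-2* and *ilys-3* are highest when wild type was fasted, and *lys-3* is highest in the fasted labelled-deficient libraries.

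In labelled-deficient animals fasting lowered 17 of the 31 members and raised 5, with 9 not called (edgeR). The 22 called members are 71.0% of those tested, and across all genes 35.3% were called, 15.7% lower and 19.6% higher. With the size factors of DESeq2, 2213 of all genes were higher and 2966 lower, against 3109 and 2485, and 5 members were higher and 18 lower. The median log2 change was -0.81 over the members and 0.11 over all genes. Among *lys* genes 6 fell and 2 rose, among *ilys* genes 1 fell and 2 rose, and among *spp* genes 10 fell and 1 rose. Of the 7 intestine markers 2 rose and 2 fell in this comparison.

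Here the abundant *lys* genes fell from a level that was already below that of fed wild type. *lys-1* was at 282, 226, 235 and 266 CPM in fed and 39.8, 32.9, 35.7 and 41.5 CPM in fasted labelled-deficient libraries (log2 change -2.75, SE 0.14, adjusted p = 3.94e-13). *lys-2* went from 128, 114.7, 107 and 121.9 CPM to 2.61, 2.45, 2.64 and 1.67 CPM, which is 28 to 68 reads per library (log2 change -5.64, SE 0.18, adjusted p = 1.52e-16). *lys-8* went from 55.4, 53.7, 48.3 and 57.3 CPM to 18.98, 19.9, 21.8 and 19.4 CPM (log2 change -1.42, SE 0.11, adjusted p = 5.88e-10). For these 3 genes fed and fasted libraries were apart. *lys-7* was at 126, 117, 116 and 206 CPM in fed and 43.7, 31.1, 32.0 and 79.4 CPM in fasted libraries (log2 change -1.60, SE 0.22, adjusted p = 6.24e-06). Its groups did not overlap, and replicate 4 was the highest in both.

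*lys-3* and *lys-4* went against their direction in wild type. *lys-3* rose from 11.1, 9.60, 8.10 and 6.62 CPM to 58.1, 64.6, 62.5 and 57.03 CPM (log2 change 2.77, SE 0.22, adjusted p = 1.06e-09). *lys-4* fell from 44.9, 44.2, 51.7 and 39.6 CPM to 14.1, 14.1, 12.2 and 14.8 CPM (log2 change -1.71, SE 0.12, adjusted p = 9.21e-11). Neither gene had overlapping groups, and the fasted level of *lys-3* was the highest of any group while that of *lys-4* was the lowest. *lys-10* rose from 0.646 ± 0.150 to 4.62 ± 0.559 CPM, and *lys-6* fell from 2.44 ± 0.176 to 0.505 ± 0.136 CPM (SD, n = 4). By TPM *lys-3* made up 0.297% ± 0.0887 of its family in fed wild type and 32.5% ± 5.08 in fasted labelled-deficient animals, where *lys-2* was down to 1.23% ± 0.337.

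*ilys-2*, *ilys-3* and *ilys-5* were called in the same direction as in wild type. *ilys-5* fell from 157, 196, 186 and 204 CPM to 32.2, 36.0, 42.0 and 48.2 CPM (log2 change -2.23, SE 0.16, adjusted p = 2.17e-10). *ilys-2* rose from 0.122, 0.322, 0.264 and 0.101 CPM to 5.10, 6.10, 7.28 and 7.15 CPM (log2 change 4.89, SE 0.41, adjusted p = 2.24e-09). Fed libraries held 2 to 9 reads of *ilys-2*, so the size of this rise is imprecise. *ilys-3* rose from 0.146 ± 0.108 to 1.89 ± 0.422 CPM, from 1 to 7 reads per library to 24 to 51. *ilys-4* was at 12.6, 12.8, 15.6 and 8.43 CPM in fed and 12.9, 13.7, 12.8 and 10.97 CPM in fasted libraries, overlapping groups that did not pass the test (log2 change 0.02, SE 0.17, adjusted p = 0.928).

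The 3 most abundant *spp* genes fell in labelled-deficient animals too. *spp-5* was at 756, 925, 943 and 606 CPM in fed and 225, 317, 317 and 270.4 CPM in fasted labelled-deficient libraries (log2 change -1.52, SE 0.20, adjusted p = 2.04e-06). *spp-3* was at 106, 127, 142 and 109.8 CPM in fed and 25.3, 26.6, 27.2 and 26.6 CPM in fasted libraries (log2 change -2.20, SE 0.14, adjusted p = 3.14e-11). *spp-14* was at 183, 186, 174 and 189 CPM in fed and 45.8, 56.6, 68.8 and 79.9 CPM in fasted libraries (log2 change -1.55, SE 0.22, adjusted p = 8.34e-06). All fed libraries of these genes lay above all fasted ones. *spp-4* fell from 11.7, 14.3, 15.9 and 11.7 CPM to 0.268, 0.109, 0.162 and 0.417 CPM, 2 to 7 reads per fasted library (log2 change -5.78, SE 0.26, adjusted p = 2.95e-14), and the low reads leave its size imprecise. *spp-23* fell from 5.69, 7.55, 7.49 and 6.57 CPM to 0.652, 0.817, 0.431 and 0.775 CPM (log2 change -3.35, SE 0.22, adjusted p = 3.89e-11). *spp-1* was the only *spp* gene called higher, from 12.5, 15.2, 14.7 and 12.2 CPM to 19.7, 22.5, 29.3 and 25.6 CPM (log2 change 0.83, SE 0.18, adjusted p = 0.000936). *spp-8* fell from 68.5 ± 6.23 to 42.4 ± 1.12 CPM (SD, n = 4), against its rise in wild type.

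The fasting comparisons of the 2 genotypes share no library. Of the members, 14 were called lower in both, which is 87.5% of the 16 lower in wild type and 82.4% of the 17 lower in labelled-deficient animals. A further 4 were called higher in both, 33.3% of the 12 higher in wild type and 80.0% of the 5 higher in labelled-deficient animals. In opposite directions were 3 members, *lys-3*, *lys-4* and *spp-8*. The same overlap was not counted over all genes, so whether it is particular to the members was not tested.

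The difference between the fasting changes was tested as an interaction, the log2 change in labelled-deficient animals minus that in wild type. It was called for 19 of 31 members, 6 positive and 13 negative (edgeR), which is 61.3% of the members beside 25.9% of all genes, 14.5% positive and 11.4% negative. The split of all genes turned with the scaling, from 2304 positive and 1805 negative to 1723 and 2165 with the size factors of DESeq2 and to 989 and 3547 with library size alone. The members' split was then 6 positive and 14 negative, and 5 and 16. Among *spp* genes 9 of 18 were negative and 2 positive. The largest positive value was that of *lys-3*, 3.69 (SE 0.32, adjusted p = 2.25e-08), which fell in one genotype and rose in the other. *ilys-5* followed with 2.61 (SE 0.22, adjusted p = 2.01e-08) and *ilys-2* with 2.49 (SE 0.55, adjusted p = 0.00214), a smaller fall and a larger rise in labelled-deficient animals. *spp-23* was at 2.35 (SE 0.35, adjusted p = 3.87e-05), where its fasted levels were about the same in both genotypes and its fed levels were not. The largest negative value was that of *lys-4*, -2.71 (SE 0.16, adjusted p = 1.02e-10). *lys-5* was at -2.66 (SE 0.60, adjusted p = 0.00234) and *ilys-3*, which rose less in labelled-deficient animals, at -2.46 (SE 0.67, adjusted p = 0.0102). With 3 to 6 reads of *lys-5* per fed wild-type library and 5 to 13 per fasted labelled-deficient one, its size is imprecise. *spp-8*, *spp-2*, *spp-3* and *spp-4* were at -1.36, -1.35, -1.22 and -1.44.

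For 3 abundant lysozyme genes no difference between the fasting changes was called. *lys-1* had an interaction of 0.11 (SE 0.19, adjusted p = 0.678), *lys-8* of 0.29 (SE 0.15, adjusted p = 0.163) and *lys-7* of 0.72 (SE 0.31, adjusted p = 0.0866). *spp-14* was at -0.08 (SE 0.30, adjusted p = 0.852), *ilys-4* at 0.24 (SE 0.25, adjusted p = 0.474) and *spp-5* at -0.70 (SE 0.27, adjusted p = 0.0609). With the replicate number as a block the interaction of *spp-5* was called (-0.74, adjusted p = 0.00243). Some interaction calls ended when a single library was left out. *ilys-3* lost its call without fed labelled-deficient replicate 1 (-1.91, adjusted p = 0.0873). *spp-1*, at -0.70 (SE 0.24, adjusted p = 0.0387), lost its call without fed wild-type replicate 1, 3 or 4, fasted wild-type replicate 1 or 2, fed labelled-deficient replicate 2 or 3, or fasted labelled-deficient replicate 1, 2 or 4 (-0.73 to -0.59, adjusted p 0.0527 to 0.0888). *spp-6* lost its call without fasted wild-type replicate 1 or 2, fed labelled-deficient replicate 1 or fasted labelled-deficient replicate 1 or 4 (-1.46 to -1.29, adjusted p 0.0502 to 0.0739). *spp-18* lost it without fasted wild-type replicate 1, fed labelled-deficient replicate 3 or fasted labelled-deficient replicate 1 or 4 (-0.59 to -0.54, adjusted p 0.0501 to 0.0617), and *spp-22* without fed labelled-deficient replicate 1 (-0.78, adjusted p = 0.0526).

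**Figure D3:**
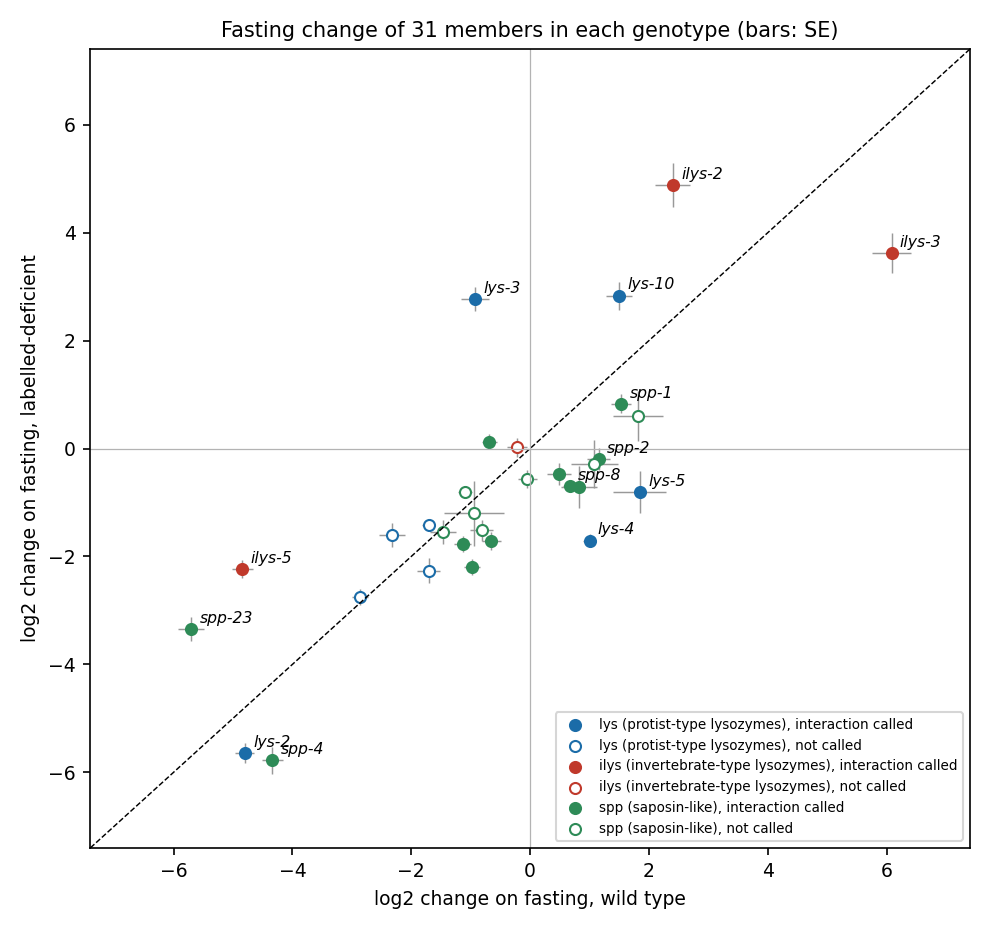
Log2 change on fasting of each of 31 tested members in wild type (x axis) and in labelled-deficient animals (y axis), with bars of 1 SE, coloured by family and filled where the interaction was called. The dashed line marks equal changes. *lys-3*, at -0.92 and 2.77, and *lys-4*, at 1.00 and -1.71, lie in the quadrants of opposite direction.

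Between the genotypes when fed, nearly all called members were lower in labelled-deficient animals. Of 31 members 22 were lower and 1 was higher (edgeR), 71.0% and 3.2% of the members. Of all genes 56.2% were called, 31.7% lower and 24.6% higher. With library size alone, 5903 of all genes were higher and 3018 lower, against 3890 and 5018, and 1 member was higher and 18 lower. The median log2 difference was -1.32 over the members and -0.08 over all genes. Among *lys* genes 6 were lower and 1 higher, among *ilys* genes 3 were lower, and among *spp* genes 13 were lower. Of the 7 intestine markers 6 were lower and none was higher. This comparison shares the fed wild-type libraries with wild-type fasting, so the 2 are not independent of each other.

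*lys-8* had the largest difference among *lys* genes, 529.9 ± 70.0 CPM in wild type against 53.7 ± 3.88 CPM in the other genotype (SD, n = 4; log2 difference -3.30, SE 0.11, adjusted p = 1.58e-15). *lys-2* was 7.85-fold lower, *lys-7* 4.54-fold and *lys-1* 4.44-fold, and no fed library of these overlapped between genotypes. *lys-10* was lower too, with a log2 difference of -2.19 (SE 0.27, adjusted p = 4.45e-07). *lys-5*, the member that was higher, was at 0.274 ± 0.108 and 0.841 ± 0.409 CPM (SD, n = 4, adjusted p = 0.00359). It had 3 to 6 reads per fed wild-type library and 13 to 33 per fed labelled-deficient one. *lys-3* was at 9.56 ± 4.14 and 8.86 ± 1.94 CPM and did not pass the test (adjusted p = 0.689). *lys-4* was at 53.6 ± 7.22 and 45.1 ± 4.97 CPM, a log2 difference of -0.25 (SE 0.11, adjusted p = 0.065) that passed with the replicate number as a block (-0.25, adjusted p = 0.0249). The count of higher members was 2 without any single fed wild-type library or without fed labelled-deficient replicate 4. Those fits tested more genes, 16143 to 16194 and 16151 against 15840, so a member untested in the main fit could enter. One such member, *spp-21*, had 10 to 21 reads in fed labelled-deficient libraries and at most 6 in wild type. Which member was added is not shown here. A member that enters through the group where it is high gives no independent support.

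*ilys-2* was 9.97-fold lower in fed labelled-deficient animals (2.22 ± 1.26 against 0.202 ± 0.108 CPM; log2 difference -3.32, SE 0.46, adjusted p = 2.89e-06) and *ilys-5* 4.05-fold lower (752 ± 197 against 186 ± 20.4 CPM; SD, n = 4). *ilys-4* was lower by 0.56 on the log2 scale (adjusted p = 0.00895), a difference that did not pass with libraries scaled by library size alone (-0.26, adjusted p = 0.271). *spp-4* had the largest difference among *spp* genes, 75.2 ± 15.7 against 13.4 ± 2.05 CPM (log2 difference -2.49, SE 0.15, adjusted p = 1.05e-11). *spp-3*, *spp-1*, *spp-14*, *spp-23* and *spp-5* were lower by 4.89-fold, 4.30-fold, 4.09-fold, 4.09-fold and 3.30-fold. None of these 6 *spp* genes overlapped between genotypes in any fed library. *spp-6*, *spp-15* and *spp-18* were called lower but lost their calls under scaling by library size alone (adjusted p 0.121 to 0.198). *spp-6*, lower by 0.94 on the log2 scale (adjusted p = 0.0213), also lost it without fed wild-type replicate 2 or fed labelled-deficient replicate 2 or 4 (adjusted p 0.0513 to 0.132).

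Between the genotypes when fasted, 26 of 31 members were lower in labelled-deficient animals and 2 were higher (edgeR). That is 83.9% and 6.5% of the members. Of all genes 57.5% were called, 29.3% lower and 28.2% higher. The median log2 difference was -1.496 over the members and -0.04 over all genes. All 9 *lys* genes were called, 8 lower and 1 higher, and 16 of 18 *spp* genes were lower. Among the 7 intestine markers 2 were higher and 2 lower. Their summed level was higher in fasted labelled-deficient than in fasted wild-type libraries, the opposite of the members' sum. The direction of this marker sum rested on *act-5*, at 45.04 ± 3.43 CPM in fasted wild type and 137.1 ± 7.21 CPM in fasted labelled-deficient libraries (SD, n = 4). *ges-1* of the same list went the other way, from 58.31 ± 6.56 to 14.49 ± 1.08 CPM. All 7 germline markers were higher, with a summed level of 801 to 1007 CPM in fasted wild type and 1774 to 2346 CPM in fasted labelled-deficient libraries. All 3 coelomocyte markers were lower, from 23.0 to 30.2 CPM summed in fasted wild type to 7.81 to 8.09 CPM. The part of these lists in the members' difference was not tested.

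*lys-2* was at 33.2 ± 1.60 CPM in fasted wild type and 2.34 ± 0.456 CPM in fasted labelled-deficient animals (SD, n = 4), 14.02-fold lower (log2 difference -3.81, SE 0.18, adjusted p = 9.12e-14). *lys-8* was 8.10-fold lower and *lys-4* 7.78-fold lower, with log2 differences of -3.02 and -2.96. *lys-3* was the exception, 5.09 ± 0.966 CPM in fasted wild type and 60.5 ± 3.57 CPM in fasted labelled-deficient animals (log2 difference 3.58, SE 0.23, adjusted p = 2.91e-11). *ilys-5*, the other member that was higher, was at 26.3 ± 3.21 and 39.6 ± 6.996 CPM, and its libraries were apart by little (log2 difference 0.59, SE 0.16, adjusted p = 0.00313). *ilys-2* was lower by 0.83 on the log2 scale (SE 0.26, adjusted p = 0.00951) and *ilys-3* by 2.58 (SE 0.23, adjusted p = 3.13e-09). *spp-4* had the lowest value among *spp* genes, -3.93 (SE 0.29, adjusted p = 1.81e-10), followed by *spp-3* with -3.51, *spp-17* with -2.95 and *spp-1* with -2.81. *spp-5* was lower by 2.42 on the log2 scale (SE 0.20, adjusted p = 1.39e-09). *spp-23* was at 0.532 ± 0.173 and 0.669 ± 0.173 CPM and did not pass the test (adjusted p = 0.394). *lys-5*, lower by 1.02 on the log2 scale (adjusted p = 0.0305), lost its call without fasted wild-type replicate 2 or 4 or fasted labelled-deficient replicate 1, 3 or 4 (adjusted p 0.0557 to 0.0998).

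Over the 4 groups, 18 of the 31 members had their highest mean CPM in fed wild type and 12 in fasted wild type. *lys-3* had it in fasted labelled-deficient animals, and no member had it in fed labelled-deficient animals. The lowest mean was in fasted labelled-deficient animals for 20 members, in fed labelled-deficient animals for 7, in fasted wild type for 3 and in fed wild type for 1. *ilys-5* and *lys-5* were called in opposite directions between genotypes when fed and when fasted. Neither the order of the groups nor opposite calls were counted over all genes, so whether they are particular to the members was not tested.

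**Figure D4:**
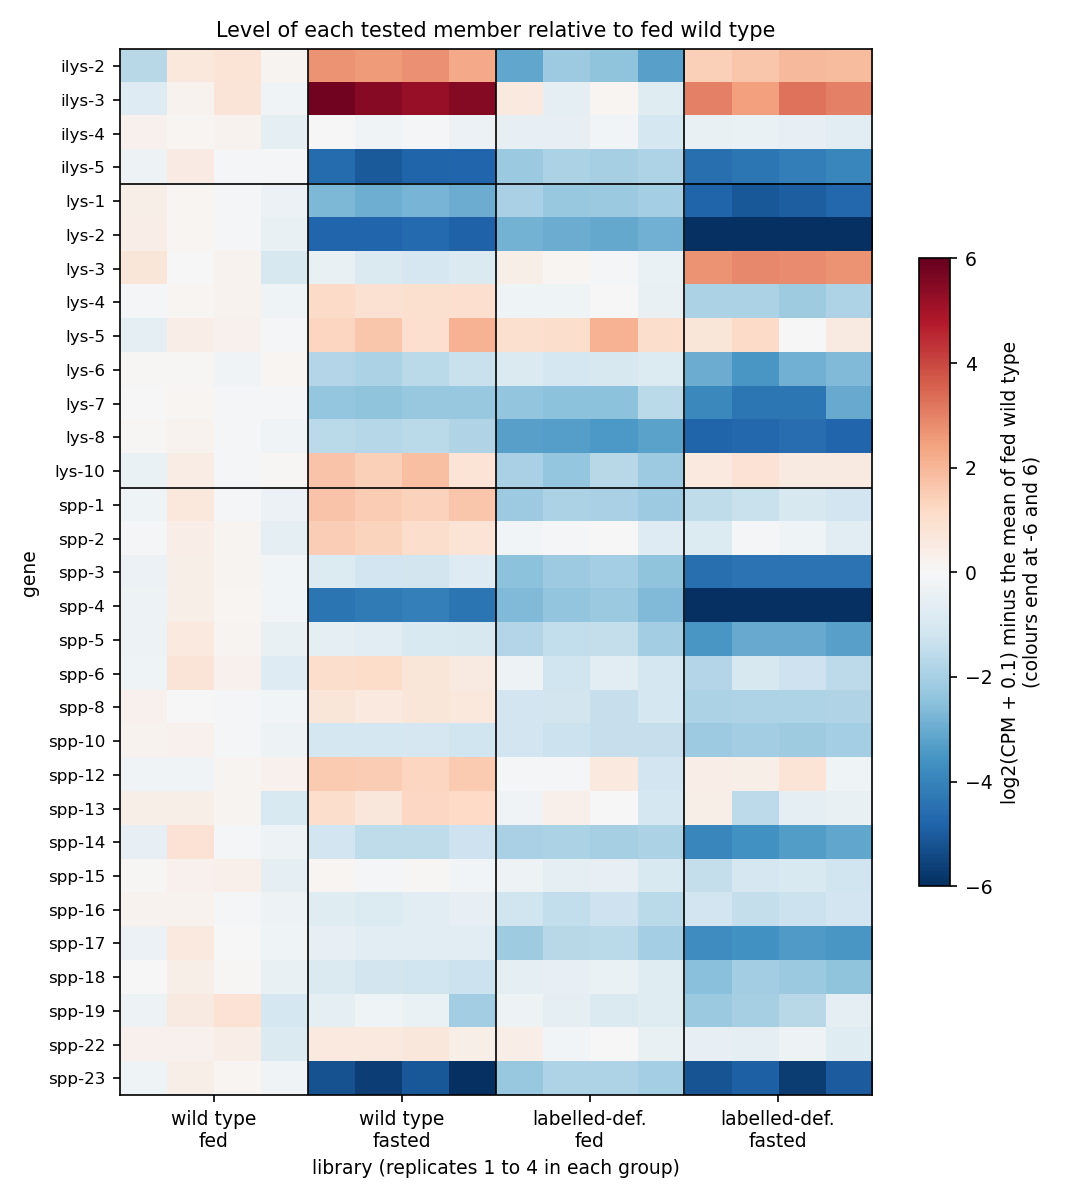
Level of each of 31 tested members (rows, by family) in each of 16 libraries (columns, by group) as log2(CPM + 0.1) minus its mean in fed wild type, red higher and blue lower. The rows of *ilys-2*, *ilys-3*, *lys-10* and *spp-1* are red in fasted wild type, and the row of *lys-3* is red in fasted labelled-deficient libraries.

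Members that lie side by side in the genome moved together in some clusters and apart in others. Positions are those of the WBcel235 annotation. Of the 39 members, 22 lie in 8 clusters, taken as members with no more than 20000 bases between neighbours. On chromosome V, *lys-1*, *lys-2* and *lys-3* lie within 5641 bases (V:10277904-10283544). On fasting in labelled-deficient animals *lys-2* fell by 5.64 and *lys-1* by 2.75 on the log2 scale while *lys-3* rose by 2.77. On chromosome IV, *lys-4*, *lys-5* and *lys-6* (IV:11621429-11627947) include 2 genes that rose and 1 that fell on fasting in wild type. *ilys-3* and *ilys-2* (with the untested *ilys-1*, IV:2464456-2471449) rose in both genotypes.

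The largest cluster holds *spp-3*, *spp-2*, *spp-6*, *spp-4* and *spp-5* within 5386 bases of the X chromosome (X:7314969-7320354). On fasting in wild type *spp-2* and *spp-6* were called higher and the other 3 lower, from -4.34 for *spp-4* to 1.15 for *spp-2* on the log2 scale. Between the fasted genotypes all 5 were lower, from -3.93 to -1.62. *spp-17* and *spp-23* (I:1016405-1019157) had log2 changes of -0.66 and -5.70 on fasting in wild type and of -1.901 and -2.03 between the fed genotypes. *spp-10* and *spp-8* (IV:8477180-8483621) went opposite ways on fasting in wild type, -1.09 and 0.66. *ilys-5* (X:6533490-6536840), *lys-7* (V:3481432-3482600), *lys-8* (II:5586178-5587651), *spp-14* (X:7725979-7726383) and *spp-1* (III:10355098-10355668) stand outside these clusters. Reads that fit several members were divided between them by the quantification, so neighbours of similar sequence may have exchanged reads. *ilys-4*, *lys-8*, *spp-1*, *spp-10*, *spp-15*, *spp-16* and *spp-19* among the tested members, and the untested *spp-20*, overlap a gene on the opposite strand. The use of strand is not stated.

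**Figure D5:**
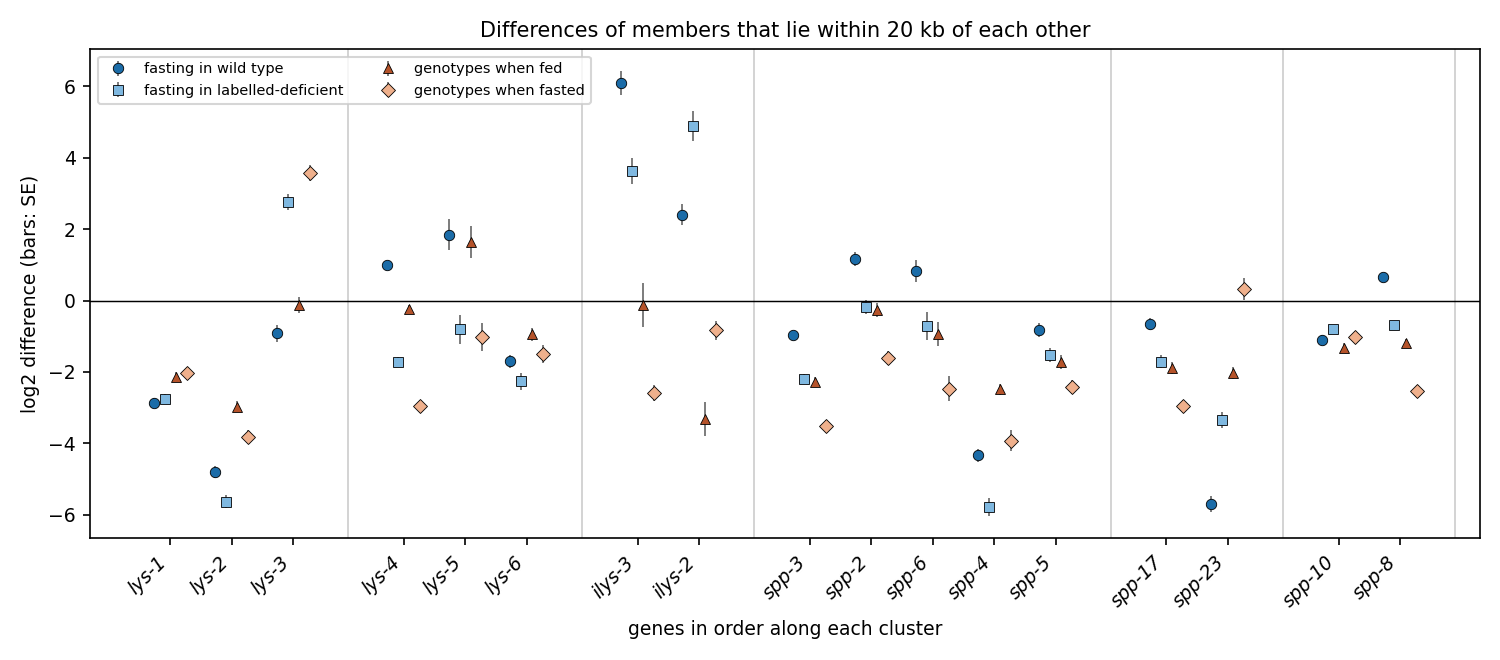
Log2 difference (y axis, bars of 1 SE) of the tested members that lie near each other, in order along each cluster (x axis, clusters divided by vertical lines), for fasting in each genotype and for the genotypes when fed and when fasted. The *lys-1* to *lys-3* cluster runs from -5.64 to 2.77 on fasting in labelled-deficient animals.

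Other genes of intestinal defence and digestion give the surroundings. The shares of all genes called in each comparison, given above, are the background for their counts. Of 15 regulators, fasting in wild type raised 4 and lowered 3, no larger a share than the 30.4% and 30.6% of all genes, led by *elt-7* (0.64, SE 0.16) and *elt-2* (-0.63, SE 0.11), both GATA factors of the intestine. Between the fed genotypes 2 regulators were higher and 7 lower, led by *pmk-1*, the p38 kinase (log2 difference 1.13, SE 0.12, adjusted p = 4.14e-08), and *dbl-1*, a ligand of the TGF-beta family (-1.02, SE 0.12, adjusted p = 3.5e-07). *pmk-1* was also higher between the fasted genotypes (1.18, SE 0.12), where 3 regulators were higher and 5 lower. On fasting in labelled-deficient animals 5 were higher and none lower, led by *daf-16* (0.63, SE 0.12), which encodes the FOXO factor. A positive interaction was called for 2, a negative one for none, with *daf-16* at 0.84 (SE 0.17).

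Of 20 tested genes for other antimicrobial peptides, fasting lowered 13 and raised 6 in wild type, and lowered 10 and raised 3 in labelled-deficient animals. *thn-2*, a thaumatin-like gene, had log2 changes of 3.00 and 2.08 and *cnc-2*, a caenacin gene, of -4.21 and -3.96. Between the fed genotypes 14 were lower and none higher, led by the defensin-like *abf-2* (-3.38, SE 0.16, adjusted p = 1.29e-13), and between the fasted genotypes 11 were lower and 1 higher. The interaction was called positive for 1 and negative for 4. Of 19 tested genes for digestive and lysosomal hydrolases, fasting in wild type lowered 13 and raised 6, led by the aspartyl protease gene *asp-8* (-4.91, SE 0.20) and the cathepsin B gene *cpr-1* (2.96, SE 0.15). In labelled-deficient animals fasting lowered 12 and raised 4. Between the genotypes 16 were lower and 2 higher when fed, and 13 lower and 3 higher when fasted. *asp-14* was lower by 5.19 on the log2 scale when fed (SE 0.14, adjusted p = 2.74e-17). Of these hydrolase genes 8 had a positive and 7 a negative interaction.

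The 8 members that were not tested had few reads in every library. *ilys-1*, *ilys-6*, *lys-9*, *spp-7*, *spp-9* and *spp-11* had at most 8 reads in any library, and *spp-20* had 2 reads in a single library and none in the other 15. *spp-21* had 3, 1, 3 and 5 reads in the fed wild-type libraries, 0, 2, 6 and 4 in the fasted ones, 21, 15, 12 and 10 in the fed and 9, 2, 4 and 3 in the fasted labelled-deficient ones. Its fed labelled-deficient libraries were the highest 4 of 16, with no test in the main fit.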

How the data were processed

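Per the labels' protocols, poly(A)-selected RNA of whole animals was read from both ends over 150 bases. The submitters' processing notes name Salmon 1.9.0, FastQC 0.11.8, MultiQC 1.19, R 4.3.2 and the build WBcel235 (ce11). The annotation release and the use of strand are not given in the sources used here. The deposited gene table holds the authors' estimated counts per gene in 16 libraries, not normalized, and the deposited transcript files give expected counts and TPM for 35749 transcripts, per the file headers. Gene TPM was summed over transcripts and was not adjusted between libraries by TMM. Positions came from Ensembl release 115, which holds 31176 of these transcripts.

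Estimated counts were rounded. Genes were kept by filterByExpr by group, which left 15840, and were scaled by TMM (factors 0.789 to 0.890 in fed wild type and 0.962 to 1.11 elsewhere). The robust quasi-likelihood model of edgeR 4.0.16 (R 4.3.3) covered the 16 libraries jointly, with a mean for each group and no other term. The 5 contrasts were tested two-sided, with p-values adjusted by Benjamini and Hochberg over all tested genes and a threshold of 0.05. A standard error is the absolute log2 change divided by the square root of F. Levels in CPM are scaled by TMM. The scripts were also run on simulated counts in which few genes changed. That setting cannot check the scaling where as many genes change as here. The members, gene lists and tests were chosen with earlier results of these data known.

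Values in every library are given for the 3 members of each family with the highest mean TPM and, per contrast and family, the called member with the largest rise and fall among those with a mean of at least 5 CPM. Other members, such as *ilys-3* and *lys-10*, were named after their values were seen. Of the other lists, the gene with the largest called change in a direction was named.

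The labels give batch 1 for every library and 4 independent experiments per group. No 2 libraries of a group were alike within sampling noise (chi-square per degree of freedom 5.75 to 85.1). Same-numbered libraries deviated together in all 4 pairs between fed and fasted wild type (correlation 0.157 to 0.575) and between the fed genotypes (0.231 to 0.668). They also did between fed and fasted labelled-deficient libraries (0.0953 to 0.447) and between fed wild type and fasted labelled-deficient libraries (0.118 to 0.378). Not every pair was positive between the fasted genotypes (-0.0642 to 0.312) or between fasted wild type and fed labelled-deficient libraries (-0.00774 to 0.507). Differently numbered libraries were not compared, so whether the numbers pair the libraries is not settled.

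Alternatives were DESeq2 1.42.0, limma voom (limma 3.58.1), size factors of DESeq2 or library size alone as scaling, no filter, a filter of a mean of at least 5 CPM, only the groups of a contrast, a replicate block, a threshold of 0.01, and leaving out each library. Marker lists were counted as genes higher and lower for fasting in wild type, fasting in labelled-deficient animals, the fed genotypes and the fasted genotypes, in that order. No marker gene was at 0 in every library of a group. Of 6 pharynx genes tested 0 were higher, and 0, 0, 2 and 3 lower. Of 6 neuron genes 0, 0, 0 and 2 were higher, and 3, 0, 4 and 2 lower. Of 7 germline genes 1, 1, 4 and 7 were higher, and 5, 0, 0 and 0 lower. Of 3 coelomocyte genes 1, 0, 0 and 0 were higher, and 1, 3, 1 and 3 lower. Of 3 body wall muscle genes 1, 0, 1 and 0 were higher, and 2, 2, 1 and 2 lower. Of 3 hypodermis genes 1, 0, 1 and 0 were higher, and 2 were lower in each. Their part in the results was not tested.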

Additional observations from a re-analysis of the deposited data

Results flagged for a closer look

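In 3 of 124 sets of 4 libraries (each of the 31 tested members in each group), 1 library stood far from the other 3, where chance gives about 1 in 20. *lys-7* was at 206 CPM in fed labelled-deficient replicate 4 and at 116 to 126 CPM in the other 3. *lys-5* was at 1.45 CPM in fed labelled-deficient replicate 3 and at 0.610 to 0.656 CPM in the others. *lys-6* was at 3.97 CPM in fed wild-type replicate 3 and at 4.84 to 4.98 CPM in the others.

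An interaction was called for 19 members (edgeR, log2 change in labelled-deficient animals minus that in wild type). That is 61.3% of those tested, beside 25.9% of all genes. Among *lys* genes it was 3.69 for *lys-3*, 1.33 for *lys-10*, -0.84 for *lys-2*, -2.66 for *lys-5* and -2.71 for *lys-4*. Among *ilys* genes it was 2.61 for *ilys-5*, 2.49 for *ilys-2* and -2.46 for *ilys-3*. Among *spp* genes it was positive for *spp-23* (2.35) and *spp-16* (0.81). It was negative for *spp-6* (-1.53), *spp-4* (-1.44), *spp-8* (-1.36), *spp-2* (-1.35), *spp-3* (-1.22) and *spp-17* (-1.05). Smaller negative values were those of *spp-22* (-0.96), *spp-1* (-0.70) and *spp-18* (-0.63). The calls of *ilys-3*, *spp-1*, *spp-6*, *spp-18* and *spp-22* were lost when some single libraries were left out. That of *spp-16* was lost with library size alone.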

How the results depend on the processing

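Values recomputed under the alternatives were counted for the called changes and for every contrast of the 15 members chosen for values in every library. Uncalled changes of other members were left out. Of these 2393 values, 2298 kept direction and side of the threshold, 61 lost and 17 gained a call, and 17 changed sign. No called change reversed or moved by over 1.5-fold. Without each library in turn, 26 to 28 members were called for fasting in wild type (9 to 12 higher, 16 to 18 lower), 22 to 24 for fasting in labelled-deficient animals (5 higher, 17 to 19 lower), 22 to 27 between the fed genotypes (1 to 2 higher, 21 to 25 lower), 27 to 28 between the fasted genotypes (2 higher, 25 to 26 lower) and 16 to 23 for the interaction (6 to 7 positive, 10 to 16 negative). With a mean of at least 5 CPM, 6 members were higher on fasting in wild type, 3 in labelled-deficient animals and 0 between the fed genotypes, since fewer members are then tested. Between the fed genotypes 2 were higher with no filter and with only the groups of the contrast, fits that tested other sets of genes (21429 and 14398). At a threshold of 0.01, 8 interactions were negative.

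Library size alone shifted the median log2 change of all genes by 0.34 for fasting in wild type, 0.29 between the fed genotypes and -0.29 for the interaction. Among the values counted above, these uncalled ones changed sign under it: *ilys-4* for fasting in wild type (0.12) and the interaction (-0.054), *lys-3* (0.18) and *lys-4* (0.056) between the fed genotypes, and the interactions of *lys-1* (-0.18) and *lys-8* (-0.0066). The interaction of *spp-16* lost its call under it (0.51, adjusted p = 0.0652). *ilys-4* for fasting in labelled-deficient animals, 0.02, was -0.056 with DESeq2 size factors and with DESeq2, -0.088 without a filter, -0.053 with only its groups, and ran from -0.12 to 0.15 without each library, below 0 without fed replicate 4 or fasted replicate 2. Without each library, *lys-3* between the fed genotypes ran from -0.35 to 0.18 and the interaction of *lys-1* from -0.0077 to 0.21, with the sign changed without fed wild-type replicate 1. The interaction of *spp-14* ran from -0.47 to 0.071, above 0 without fed wild-type replicate 1 or 4 or fasted labelled-deficient replicate 1. The cause was not tested.

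With the replicate number as a block 28, 23, 24, 29 and 21 members were called in the 5 contrasts, against 28, 22, 23, 28 and 19. Calls rose over all 15840 genes too, to 10692, 7406, 9951, 10000 and 6422, against 9657, 5594, 8908, 9114 and 4109. Beside *lys-4* between the fed genotypes, calls were gained for *spp-22* on fasting in labelled-deficient animals (-0.47), *ilys-4* between the fasted genotypes (-0.32) and the interactions of *spp-5* (-0.74) and *spp-15* (-0.54), and no member call was lost. Members under 10 reads per library, such as *ilys-3* when fed, *lys-5* in fed wild type and *spp-4* in fasted labelled-deficient libraries, have imprecise sizes.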

Other observations

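Several members are listed with more than 1 transcript, 12 of the 39. For *ilys-5* nearly all reads were assigned to transcript F22A3.6a.1, with 12670 ± 2544 reads in fed wild type and 553 ± 42.6 in fasted wild type (SD, n = 4), beside 30.8 ± 5.13 and 0.532 ± 1.06 reads for F22A3.6b and none for 2 others. For *spp-10* the longer transcript C28C12.7b.1 was at 75.4 ± 13.6 TPM in fed wild type and 13.7 ± 1.60 TPM in fasted labelled-deficient animals, and the shorter C28C12.7a.1 at 375 ± 60.5 and 153 ± 2.33 TPM. No test was run on transcripts.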
